A study of Homo sapiens with 4 samples.

Results

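The 10 genes described here, TGOLN2, NRSN2, SPATA2, MED29, RALB, STK4, VAPA, SPIN1, ZNF24 and GPX1, were picked by name from the 58174 genes of a series on 2 human liver cancer cell lines. They were picked because the level of each differed at least 2-fold between the si-FENDRR and the si-NC library of both lines, and because no exon of theirs shares bases with an exon of another gene. LM3 is a hepatocellular carcinoma line and RBE an intrahepatic cholangiocarcinoma line. Cultures of each received either si-FENDRR, an siRNA that targets the long noncoding RNA FENDRR, or the negative control siRNA si-NC, and were left for 48 h. Each line has 1 mRNA library per transfection, which makes 4 libraries in all: LM3 with si-FENDRR, LM3 with si-NC, RBE with si-FENDRR and RBE with si-NC. No untransfected culture, second siRNA or repeat culture is named in the labels. The stated subject of the series is the effect of FENDRR on expression in primary liver cancer. Where a pair of levels is given below, the si-FENDRR library comes first and the si-NC library second.

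Levels are FPKM, fragments scaled for gene length and for the mapped fragments of the library, so they can be set side by side between genes. Differences are given as ratios of FPKM and on the log2(FPKM + 1) scale, where a 2-fold difference of FPKM + 1 is 1 and changes of weakly expressed genes are understated. Every count of genes that differed 2-fold is of FPKM + 1, so a gene can have an FPKM ratio above 2 and not be counted. A within-line difference compares 1 library with 1 library. It has no replicate check and no test, and these differences chose the genes. In bulk RNA, fewer cells that express a gene and less RNA per cell cannot be told apart.

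The genes have varied roles. TGOLN2 encodes a membrane protein that cycles between the trans-Golgi network and the cell surface, and VAPA an endoplasmic reticulum protein that tethers this membrane to other organelles. RALB is a small GTPase of the Ral branch of Ras signalling that acts on the exocyst, and STK4 (MST1) a kinase at the head of the Hippo pathway, which restrains liver growth by inactivating the coactivator YAP. SPATA2 links the deubiquitinase CYLD to the linear ubiquitin ligase complex at the TNF receptor. MED29 is a subunit of Mediator, the complex between transcription factors and RNA polymerase II. ZNF24 is a zinc finger transcription factor with a SCAN domain, and SPIN1 a reader of methylated histone H3. GPX1 is a selenium-containing enzyme that reduces hydrogen peroxide with glutathione. NRSN2 encodes neurensin 2, a small membrane protein of vesicles.

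FENDRR and its neighbour FOXF1 were listed at 0 FPKM in all 4 libraries, so the knockdown could not be checked and the libraries are compared by label alone. Between 13437 and 13682 genes reached 1 FPKM per library. Of 10 hepatocyte markers, 8 reached 1 FPKM in some library; ALB had 35.7 and 33.3 FPKM in LM3 and at most 0.27 in RBE, whereas SERPINA1 was at 56.8 and 82.5 in RBE and at 0.0957 and 0.0892 in LM3, and APOA1 and APOB were at most at 0.071 and 0.343 in any library. Of 8 cholangiocyte markers, 7 reached 1 FPKM in some library. KRT7 was at 429 and 391 FPKM in RBE against 7.21 and 6.02 in LM3. SPP1, the most abundant, went the other way, at 1120 and 909 FPKM in LM3 against 515 and 504 in RBE. KRT19 was at 467 and 466 FPKM in RBE and at 156 and 181 in LM3, and CFTR was at most at 0.023. The leukocyte markers CD3E and MS4A1 were listed at 0, and 1 of 5 leukocyte markers, CD68, reached 1 FPKM. Its LM3 levels were 60.1 and 62.2 FPKM, and its RBE levels 14.2 and 13.9. Among the 5 fibroblast markers 3 reached 1 FPKM, with LUM highest. LUM had LM3 levels of 28.4 and 24.9 FPKM and was listed at 0 in RBE. Among the 5 endothelial markers only PECAM1 did, with LM3 levels of 3.1 and 3.86 FPKM. Of the 33 markers of 5 cell types, 20 reached 1 FPKM in some library, and 0 of these 20 differed 2-fold between the libraries of a line. Of all genes with at least 1 FPKM in any library, 2.13% did in LM3 and 1.75% in RBE. B2M, often used as a reference gene, was at 62.6 versus 377 FPKM in LM3 and 238 versus 36.5 in RBE.

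Among 15930 genes with at least 1 FPKM in any library, 339 (2.13%) differed at least 2-fold in LM3 and 279 (1.75%) in RBE. In both lines at once it was 49 (0.308%), of which 24 (0.151%) differed in the same direction and 25 (0.157%) in opposite directions. Of the 49, 21 share no exon with a gene on their own strand and 16 share none on either strand, and the 10 genes are among these 16. By line, 5 of the 10 were higher in LM3 (1.19% of tested genes were) and 5 lower (0.942%), and in RBE 4 were higher (0.879%) and 6 lower (0.873%). Among 6441 protein-coding genes with no shared exon, 1.12% differed 2-fold in LM3, 1.13% in RBE and 0.217% in both. The 10 divide into 1 gene higher with si-FENDRR in both lines (TGOLN2), 2 lower in both (NRSN2, SPATA2), 4 higher in LM3 and lower in RBE (MED29, RALB, STK4, VAPA) and 3 lower in LM3 and higher in RBE (SPIN1, ZNF24, GPX1). These counts restate the choice of genes and are not a result.

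Promoter windows of all 10 genes were found in RefSeq (build GRCh38.p14), each covering 250 bases before to 50 after an annotated start, with a second window for NRSN2 and SPATA2. The 3 genes that differed the same way in both lines are shown first, then MED29 and GPX1, which had the widest opposite differences of either order. Capitals mark every match to any of 11 motifs searched on both strands: the GC box as GGGCGG, the CCAAT box, the TATA box as TATAAA, the E-box as CACGTG, the cyclic AMP element (CRE) as TGACGTCA, its short form as TGACG, the AP-1 site as TGANTCA, the ETS core as CCGGAA, the NRF1 core as GCGCATG, the YY1 core as AAGATGG and the forkhead core as TGTTTAC. A full CRE holds the short form at both ends, and no other motif of the list lies within another.
TGOLN2, chr2:85327940-85328239, minus strand: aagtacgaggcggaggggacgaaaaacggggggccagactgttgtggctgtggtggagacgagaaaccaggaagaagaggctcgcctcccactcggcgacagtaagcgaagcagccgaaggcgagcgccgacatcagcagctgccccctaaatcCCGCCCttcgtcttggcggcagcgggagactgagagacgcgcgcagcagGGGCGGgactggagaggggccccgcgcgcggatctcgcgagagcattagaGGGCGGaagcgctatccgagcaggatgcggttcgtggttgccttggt
NRSN2, chr20:346861-347160, plus strand: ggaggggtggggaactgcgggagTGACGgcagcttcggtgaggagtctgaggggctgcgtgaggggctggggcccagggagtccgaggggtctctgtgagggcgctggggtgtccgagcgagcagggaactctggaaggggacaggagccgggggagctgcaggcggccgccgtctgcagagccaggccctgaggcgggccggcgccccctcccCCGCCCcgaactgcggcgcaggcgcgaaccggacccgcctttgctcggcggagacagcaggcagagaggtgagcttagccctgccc
SPATA2, chr20:49915480-49915779, minus strand: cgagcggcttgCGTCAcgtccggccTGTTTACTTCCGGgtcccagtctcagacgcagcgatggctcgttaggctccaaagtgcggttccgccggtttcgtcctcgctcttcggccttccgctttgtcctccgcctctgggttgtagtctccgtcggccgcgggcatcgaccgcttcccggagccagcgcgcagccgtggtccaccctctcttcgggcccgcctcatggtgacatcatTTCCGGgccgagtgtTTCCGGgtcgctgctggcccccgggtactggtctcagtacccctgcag
MED29, chr19:39391128-39391427, plus strand: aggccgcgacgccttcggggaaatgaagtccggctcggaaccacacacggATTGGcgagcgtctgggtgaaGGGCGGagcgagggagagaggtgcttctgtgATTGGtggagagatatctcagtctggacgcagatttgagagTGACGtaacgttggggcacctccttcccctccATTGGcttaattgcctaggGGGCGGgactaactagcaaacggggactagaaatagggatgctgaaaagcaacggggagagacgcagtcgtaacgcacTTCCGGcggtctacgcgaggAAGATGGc
GPX1, chr3:49358304-49358603, minus strand: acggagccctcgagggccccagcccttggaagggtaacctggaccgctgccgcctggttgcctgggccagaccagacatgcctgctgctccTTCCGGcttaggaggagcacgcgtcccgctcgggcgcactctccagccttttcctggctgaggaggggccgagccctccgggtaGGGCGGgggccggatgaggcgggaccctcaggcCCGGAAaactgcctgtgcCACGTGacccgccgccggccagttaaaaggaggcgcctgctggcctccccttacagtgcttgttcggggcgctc

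The windows differed from gene to gene. A GC box stood in 10 of the 12 windows, from 9 of the 10 genes with SPATA2 as the exception. It stood in 45% of the 35116 promoter windows of the RefSeq table. The window GC content of the 10 genes ran from 45.7% for the second SPATA2 window to 83% for SPIN1, against a median of 58.7% over all windows. The ETS core was found in 5 of the 12 windows (MED29, SPATA2, STK4, ZNF24 and GPX1) and in 17.2% of all windows. The YY1 core was found in 3 of the 12 (MED29, NRSN2 and SPATA2) and in 5.84% of all. NRSN2 and SPATA2, the 2 genes lower in both lines, each have matches to the short CRE form and, in their second windows, to the YY1 core, but MED29, which differed in opposite directions, has both as well. Of the 10 genes only SPATA2 held the forkhead core, in its first window beside an ETS core; it stood in 3.42% of all windows. A CCAAT box was found in MED29 and RALB and in 34.6% of all windows, and an AP-1 site in VAPA and in 7.71%. The short CRE form was found in 5 of the 12 windows (MED29, NRSN2, SPATA2 and VAPA) and in 24.6% of all. The E-box stood in STK4, VAPA and GPX1 and in 7.26% of all windows. No window of the 10 genes held TATAAA, the full CRE or the NRF1 core, found in 11.5%, 1.85% and 4.43% of all windows, which says only that these letters are not there. A match is a description of the sequence and not a binding site.

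TGOLN2 (ENSG00000152291, chromosome 2, 85318020 to 85328425, minus strand, hg38) was the gene of the 10 with the widest difference in a shared direction. It was at 46.1 (si-FENDRR) and 9.06 FPKM (si-NC) in the LM3 libraries, and at 37.4 and 5.09 FPKM in those of RBE. Both si-FENDRR libraries stood above both si-NC libraries, as in 5.4% of all tested genes and as the choice of the gene favours, with ratios of 5.09 in LM3 and 7.35 in RBE. With si-NC it was near the middle of the tested genes, at percentile 58.6 in LM3 and 48.7 in RBE, and with si-FENDRR at percentiles 90.5 and 88.6. The log2 differences were 2.23 in LM3 and 2.66 in RBE.

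NRSN2 and SPATA2 were lower with si-FENDRR in both lines. NRSN2 (ENSG00000125841, chromosome 20, 346782 to 359660, plus strand) was at 4.18 (si-FENDRR) and 15.6 FPKM (si-NC) in the LM3 libraries, and at 3.68 and 8.41 FPKM in those of RBE. SPATA2 (ENSG00000158480, chromosome 20, 49903391 to 49915508, minus strand) was at 2.14 and 9.73 FPKM for LM3 and 1.64 and 5.61 for RBE. For both genes the si-NC libraries lay above the si-FENDRR libraries, as in 3.95% of all tested genes and as the choice of genes favours. The si-NC level was 3.72 times (LM3) and 2.29 times (RBE) the si-FENDRR level for NRSN2, and 4.54 and 3.41 times for SPATA2. The log2 difference of NRSN2 in RBE was -1.01, which places it just inside the 2-fold rule, and it was -1.68 in LM3. SPATA2 had log2 differences of -1.77 and -1.32.

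MED29, RALB, VAPA and STK4 were higher with si-FENDRR in LM3 and lower in RBE. MED29 (ENSG00000063322, chromosome 19, 39391303 to 39400637, plus strand) was at 27.7 (si-FENDRR) and 5.5 FPKM (si-NC) in the LM3 libraries, and at 2.79 and 15.1 FPKM in those of RBE. The highest and the lowest of its 4 libraries were thus the si-FENDRR libraries, 9.93-fold apart, while with si-NC RBE was 2.74-fold above LM3. Its log2 differences were 2.14 in LM3 and -2.08 in RBE.

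RALB (ENSG00000144118, chromosome 2, 120240064 to 120294713, plus strand) was at 32.3 (si-FENDRR) and 11.5 FPKM (si-NC) in the LM3 libraries, and at 9.29 and 27.5 FPKM in those of RBE. VAPA (ENSG00000101558, chromosome 18, 9914002 to 9960021, plus strand) was at 78.6 and 27.9 FPKM for LM3 and 24.8 and 59.7 for RBE. The order of the 4 libraries was the same in both genes as in MED29: LM3 with si-FENDRR highest, then RBE with si-NC, LM3 with si-NC and RBE with si-FENDRR. STK4 (ENSG00000101109, chromosome 20, 44966474 to 45079959, plus strand) was at 12.6 (si-FENDRR) and 5.73 FPKM (si-NC) in the LM3 libraries, and at 1.55 and 5.93 FPKM in those of RBE. Its si-NC libraries had almost the same level in both lines, with LM3 at 0.965 times RBE, so the lines parted only in the si-FENDRR libraries, 8.15-fold. The log2 differences in LM3 and RBE were 1.42 and -1.47 for RALB, 1.46 and -1.24 for VAPA, and 1.02 and -1.44 for STK4.

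The other three genes with opposite differences were lower with si-FENDRR in LM3 and higher in RBE. GPX1 (ENSG00000233276, chromosome 3, 49357176 to 49358600, minus strand), the most abundant of the 10, was at 163 (si-FENDRR) and 435 FPKM (si-NC) in the LM3 libraries, and at 219 and 99.9 FPKM in those of RBE. SPIN1 (ENSG00000106723, chromosome 9, 88388419 to 88478694, plus strand) was at 4.17 and 11.7 FPKM for LM3 and 19.8 and 8.38 for RBE. ZNF24 (ENSG00000172466, chromosome 18, 35332212 to 35345482, minus strand) was at 4.4 and 10.1 FPKM for LM3 and 7.36 and 2.57 for RBE. GPX1 and ZNF24 had their highest level in LM3 with si-NC and their lowest in RBE with si-NC, whereas the extremes of SPIN1 were the 2 si-FENDRR libraries. The log2 differences in LM3 and RBE were -1.41 and 1.12 for GPX1, -1.29 and 1.15 for SPIN1, and -1.04 and 1.23 for ZNF24.

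**Figure D1:**
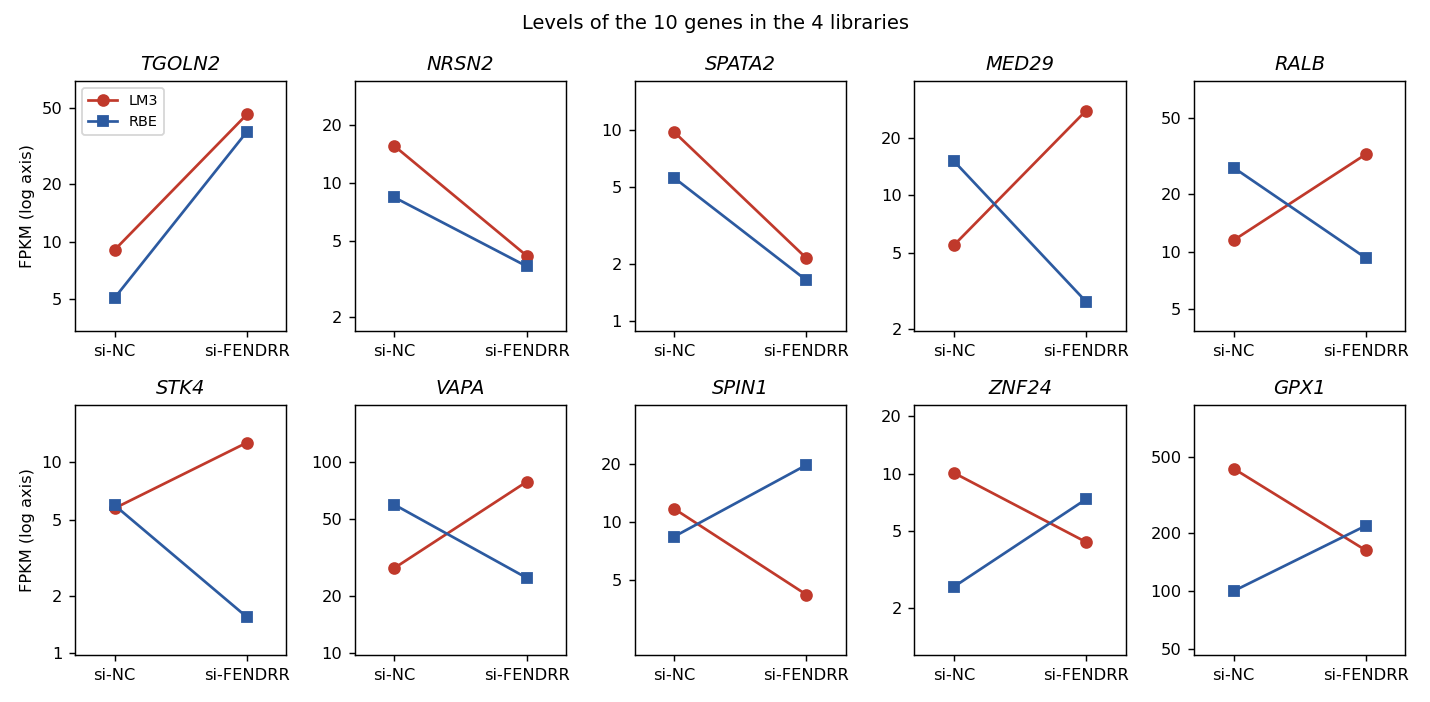
Level of each of the 10 genes (FPKM, log axis) in the si-NC and si-FENDRR library of LM3 (red circles) and RBE (blue squares), with 1 library per point and a line joining the libraries of a cell line. The lines run the same way for TGOLN2, NRSN2 and SPATA2 and cross for the other 7 genes.

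The 7 genes with opposite differences had differences of nearly equal size in the 2 lines. The mean of the 2 log2 differences lay between -0.21 (STK4) and 0.11 (VAPA), with 0.03 for MED29 and -0.03 for RALB. Of the 18 other genes with opposite differences, 11 also had a mean of at most 0.21 in size, and the whole range was 0.01 to 1.09. The median size was 0.09 in the 7 genes and 0.17 in the 18 others, so near-equal opposite differences are not particular to the 7. The line with the higher level was exchanged between si-NC and si-FENDRR in all 7, as in 17 of the 18 others and in 13% of all tested genes. Opposite 2-fold differences favour such an exchange but do not fix it. It also depends on the difference between the lines with si-NC, which the rule did not use. The exchange is given as a description and was not tested.

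The genes nearest to the limit of the rule were NRSN2, STK4 and ZNF24, whose smaller log2 difference was 1.01, 1.02 and 1.04 in size. Just outside, among protein-coding genes with no shared exon, were the transcription factor gene XBP1 with -0.98 and -1.12 in LM3 and RBE, and FKBP5, a co-chaperone of steroid receptors, with 1.08 and -0.98. MANSC1 (1.67 and -0.94) and YTHDF3, a reader of methylated RNA (1.65 and 0.94), followed. Values on the inner and outer side of the limit thus lay close together.

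**Figure D2:**
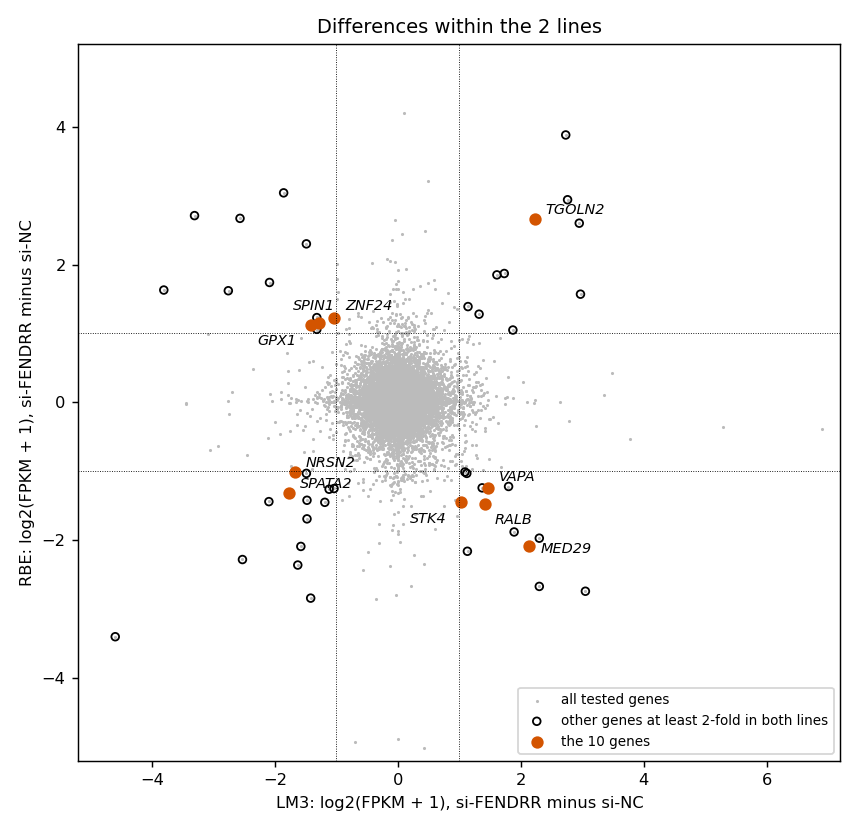
Log2(FPKM + 1) difference between si-FENDRR and si-NC in LM3 (x axis) and RBE (y axis) for 15930 genes (grey), the 39 other genes at least 2-fold different in both lines (open circles) and the 10 genes (orange), with dotted lines at the 2-fold limit. TGOLN2 stands at the upper right, NRSN2 and SPATA2 at the lower left, and the other 7 in the 2 opposite corners.

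The level of a gene in LM3 against RBE was not part of the rule, but the rule bears on its test. By limma over all 15930 genes, with terms for line and transfection, 9348 genes (58.7%) differed between LM3 and RBE at an adjusted p under 0.05. With 4 libraries the error of this test comes from the gap between the 2 within-line differences, which are the values that chose the genes. The choice made the error large in the 7 genes with opposite differences. For the 3 with a shared direction the rule sets no upper limit to the gap, and their standard errors were 0.16 to 0.21. The limma values of the 10 genes are therefore given as a description, and their count is not read against that of all genes.

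TGOLN2 was higher in LM3 by 0.51 ± 0.16 on the log2 scale (SE, n = 2 libraries per line; adjusted p = 0.0541 by limma, and 0.0408 to 0.766 over the alternatives). SPATA2 (0.47 ± 0.17, adjusted p = 0.0778) and NRSN2 (0.48 ± 0.21, adjusted p = 0.118) were also above their RBE level under either transfection. In the 7 other genes the standard errors were 0.59 to 1.08, and the adjusted p-values by limma ran from 0.181 for STK4 to 0.788 for RALB. With si-NC, GPX1 was 4.35-fold and ZNF24 3.94-fold higher in LM3, MED29 2.74-fold, RALB 2.4-fold and VAPA 2.14-fold higher in RBE, and SPIN1 1.39-fold higher in LM3. With si-FENDRR, MED29, STK4, RALB and VAPA were 9.93, 8.15, 3.48 and 3.17 times as high in LM3 as in RBE, and SPIN1, ZNF24 and GPX1 4.74, 1.67 and 1.34 times as high in RBE as in LM3.

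No tested paralog of the 10 genes differed 2-fold in FPKM + 1 in both lines, and only 0.308% of all tested genes did. RALA, the other Ral GTPase, was at 18 and 18.4 FPKM for LM3 and 9.85 and 9.12 for RBE. STK3 (MST2), the partner kinase of STK4, was at 8.76 and 9.7 FPKM for LM3 and 6.22 and 5.49 for RBE. VAPB, which shares the tethering role of VAPA, had 6.73 and 6.38 FPKM in LM3 but 9.47 and 4.36 in RBE, a log2 difference of 0.97 where VAPA had -1.24. SPATA2L was at 7.45 and 7.12 FPKM for LM3 and 6.73 and 6.17 for RBE.

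Among the glutathione peroxidases, GPX4, which protects membrane lipids, was at 383 and 470 FPKM for LM3 and 262 and 257 for RBE, and the epithelial enzyme GPX2 at 692 and 691 in LM3 and at 93.8 and 94.6 in RBE. The secreted enzyme GPX3 was at 10.8 versus 3.23 FPKM in LM3, the reverse of GPX1, and at 0.693 versus 0.995 in RBE; GPX8 was at 17.4 and 13.7 in LM3 and at 6.43 and 9.69 in RBE. SPIN2A, SPIN2B, SPIN3 and SPIN4 were all at 3 FPKM or less, with log2 differences from -0.63 to 0.66. GPX7 and NRSN1 were under 1 FPKM in all 4 libraries and were not tested. Of the 12 tested paralogs, 1 differed 2-fold in FPKM + 1 in LM3 (GPX3) and 0 in RBE, where 2.13% and 1.75% of all tested genes did. Their medians were 0.06 and 0.01 on the log2 scale, where all tested genes had medians of 0 and 0.02.

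Of the 31 Mediator subunits other than MED29, 0 differed 2-fold in LM3 and 1 in RBE (MED18, at 2.62 versus 7.07 FPKM), with median log2 differences of -0.02 and 0.09. Of all tested genes 2.13% differed 2-fold in LM3 and 1.75% in RBE. A count of 0 or 1 in this list or those below is thus near the share of all genes. Their range was -0.53 to 0.52 in LM3 and -1.16 to 0.45 in RBE, against 2.14 and -2.08 for MED29. MED23, at 6.09 and 3.94 FPKM for LM3 and 5.85 and 4.83 for RBE, was higher after si-FENDRR in either line, and MED26, lower in both, was at 3.06 and 3.83 in LM3 and 1.83 and 3.35 in RBE.

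In the Ral pathway, 0 of 21 genes other than RALB differed 2-fold in either line (medians -0.04 in LM3 and 0.1 in RBE). Of all tested genes 2.13% did in LM3 and 1.75% in RBE. The Ral activator RALGDS was at 16.4 and 21 FPKM for LM3 and 22.2 and 15.7 for RBE. The exocyst subunits ranged in log2 difference from -0.67 (EXOC3 in RBE) to 0.3 (EXOC4 in LM3). EXOC5 was lower after si-FENDRR in either line, at 4.75 versus 6.62 FPKM and 2.12 versus 3.65.

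In the Hippo cascade, 0 of 23 genes other than STK4 differed 2-fold in LM3 (2.13% of all tested genes), and 2 did in RBE (1.75%), 1 in each direction. These were TEAD1, a DNA-binding partner of YAP, at 15.6 versus 5.28 FPKM, and RASSF5, a binding partner of STK4, at 1.73 versus 5.68. In LM3 TEAD1 was at 10.3 and 10.4 FPKM and RASSF5 at 0.182 and 0.26. The medians were 0.05 in LM3 and 0.08 in RBE. The kinases LATS1 (2.84 and 2.4 FPKM in LM3, 2.18 and 2.45 in RBE) and LATS2 (1.96 and 1.8, 6.63 and 5.65), which stand between STK4 and YAP, and YAP1 itself (18.4 and 19.5, 13.1 and 12.3) stayed within 2-fold.

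Around SPATA2, 0 of 18 other genes of CYLD and the linear ubiquitin machinery differed 2-fold in either line (medians -0.1 and 0.08). The shares of all tested genes were 2.13% in LM3 and 1.75% in RBE. CYLD was at 6.7 and 6.66 FPKM for LM3 and 5.73 and 4.76 for RBE. The lowest log2 difference in LM3 was that of NFKBIA, the inhibitor of NF-kappa-B, at 42.6 versus 65.2 FPKM, and the highest in RBE that of BIRC2, a ubiquitin ligase of the TNF receptor complex, at 6.44 versus 3.4 FPKM. In the list of VAP contact sites, 0 of 19 other genes differed 2-fold in FPKM + 1 (medians -0.03 and 0.14), and PI4KA, a lipid kinase, was lower after si-FENDRR in either line, at 15.5 versus 23.3 FPKM and 14.1 versus 22.6.

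Of 21 genes of the trans-Golgi network other than TGOLN2, 0 differed 2-fold in FPKM + 1 in LM3 (2.13% of all tested genes) and 1 in RBE (1.75%). This was STX16, a syntaxin of endosome-to-Golgi transport, at 18.1 versus 5.94 FPKM, with 25.7 and 28.1 in LM3. The medians were 0.02 and 0.11. The syntaxin STX6 was higher after si-FENDRR in either line, at 3.51 versus 1.48 FPKM and 3.43 versus 2.42, as was the mannose 6-phosphate receptor M6PR at 76.3 versus 42.7 and 46.4 versus 38.3. Their log2 differences were 0.86 and 0.82 in LM3, where TGOLN2 had 2.23.

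Among enzymes of glutathione and peroxide metabolism, 1 of 21 other than GPX1 differed 2-fold in LM3 (GPX3) and 0 in RBE (medians -0.02 and 0). For this list and the next 3, the shares of all tested genes were 2.13% in LM3 and 1.75% in RBE. Among selenoproteins and the factors that insert selenocysteine, 1 of 25 others differed in LM3 (again GPX3) and 1 in RBE, SELENOF of the endoplasmic reticulum, at 82.7 versus 26.4 FPKM. The plasma selenium carrier SELENOP was at 25.7 versus 12.7 FPKM in RBE, and SEPHS1 went opposite ways, at 28.5 versus 16.3 in LM3 and 26.1 versus 41.2 in RBE. Of histone methyl readers other than SPIN1, 0 of 22 differed 2-fold in either line (medians 0.1 and 0.11). Of 24 other SCAN zinc finger genes, 0 differed 2-fold in LM3 and 1 in RBE (ZKSCAN1, at 4.87 versus 11.4 FPKM), with medians of -0.01 and -0.05, and ZSCAN2 was higher in both lines at 8.16 versus 3.96 and 9.96 versus 6.67.

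Genes beside the 10 on the chromosome were mostly within 2-fold, as most tested genes were. Of the 20 tested genes nearest to them, 1 on each side, 1 differed 2-fold in LM3 and 0 in RBE. Among all tested genes 2.13% did in LM3 and 1.75% in RBE, and counts out of 20 cannot be told from these shares. By values rounded to 2 decimals, 16 of the 20 stayed under 0.5 on the log2 scale in both lines, a limit not counted over all genes. RNF114 beside SPATA2 stood at the limit, with a rounded -0.5 in LM3, and is not among the 16. PAF1, an elongation factor subunit that starts 108 bp from MED29 on the other strand, was at 43.7 FPKM in both LM3 libraries and at 32.2 and 30.7 in RBE. RHOA, which ends 545 bp from GPX1 on the same strand, was at 195 and 174 FPKM for LM3 and 186 and 206 for RBE. RETSAT beside TGOLN2 was at 32.9 and 29.8 FPKM for LM3 and 33.5 and 27.4 for RBE.

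The exception was TRIB3, a stress-induced pseudokinase 3175 bp beyond NRSN2, at 89.6 versus 234 FPKM for LM3 and 95.5 versus 92.1 for RBE. On the other flank of MED29, 6176 bp away, ZFP36 had the same signs as MED29 at a smaller size, 128 versus 94 FPKM for LM3 and 3.29 versus 7.36 for RBE. NAPG, 565884 bp from VAPA, also shared its signs, at 15 versus 10.8 and 2.56 versus 4.46 FPKM. An antisense gene within the span of NRSN2 that shares no exon with it, NRSN2-AS1, was at 4.33 and 4.27 FPKM for LM3 and 4.32 and 4.5 for RBE. No source used here gives the strand setting of the libraries.

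**Figure D3:**
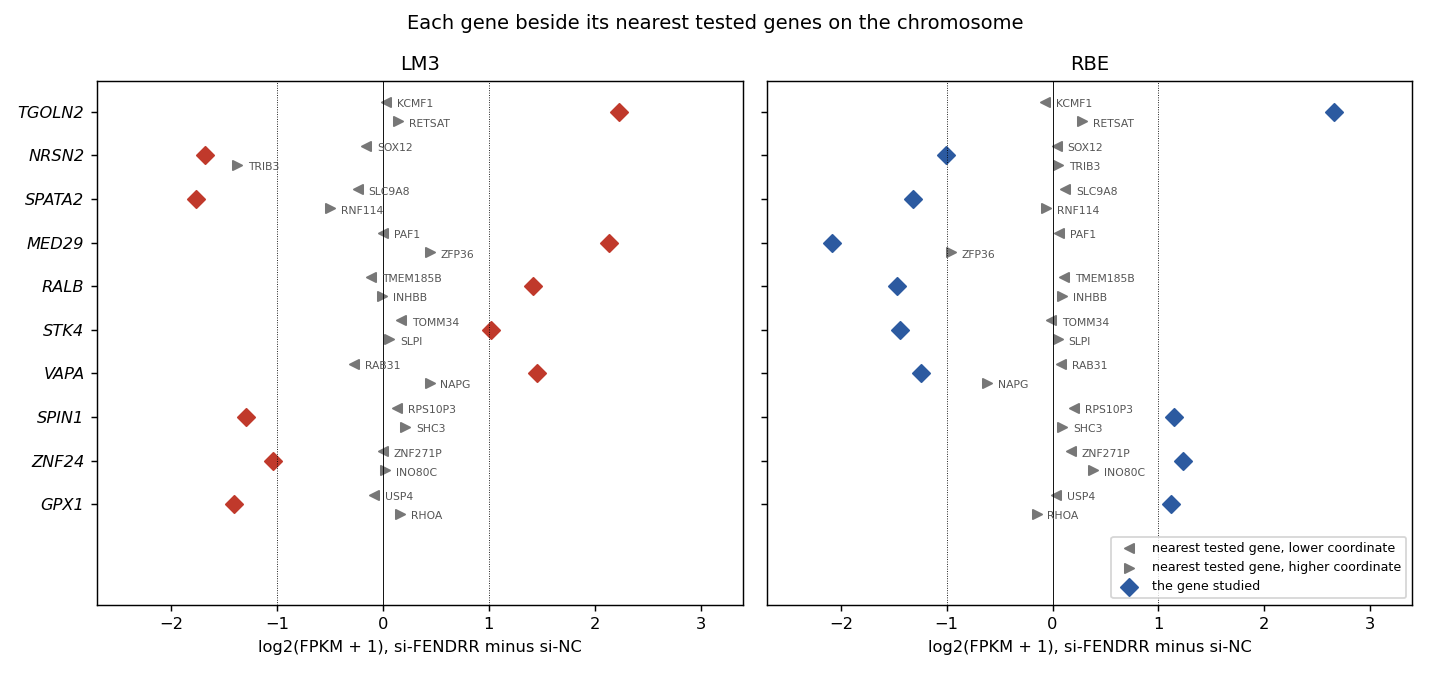
Log2(FPKM + 1) difference between si-FENDRR and si-NC in LM3 (left) and RBE (right) for each of the 10 genes (diamonds) and the nearest tested gene on each side (triangles, named), with dotted lines at the 2-fold limit. Of the 20 neighbours only TRIB3 in LM3 lies beyond a dotted line.

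The 10 genes lie on 6 chromosomes, with 3 on chromosome 20 (NRSN2, SPATA2 and STK4), which holds 2.64% of the tested genes, and 2 each on chromosomes 2 and 18. Their transcript models in GENCODE release 29 number from 2 (SPATA2) to 10 (NRSN2), against a median of 6 over all tested genes. VAPA has models from 532 to 6815 bases, ZNF24 from 569 to 7419 and STK4 from 549 to 6342. An FPKM per gene can shift when fragments are assigned to models of other lengths; values per transcript were not analysed here. GPX1 is the only one of the 10 not typed as protein-coding in that release, where it is a polymorphic pseudogene.

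Sequence shared with other genes was small in 9 of the 10. Of all 50-base windows in their transcripts, 0% to 1.46% occurred in a transcript of another gene on either strand, with no window shared between RALB, NRSN2 or ZNF24 and any other gene. In GPX1 it was 14.7%, mostly shared with the copy GPX1P1 (224 of 1612 windows). GPX1P1 was at 9.82 and 7.84 FPKM for LM3 and 5.42 and 6.04 for RBE, below GPX1 in every library, but how reads that fit both were counted is not given, and the GPX1 level is to that extent uncertain.

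Genes with the most similar pair of within-line differences were sought among 8166 other tested genes without a shared exon, by the distance between the pairs of log2 differences over the 2 lines. In this pool TGOLN2 had no close match, with YTHDF3 nearest at 1.81 log2 units, and neither had MED29, with MANSC1 at 1.24. The other 8 had a match within 0.53: SLC10A3 for NRSN2 (0.33), GSPT1 for SPATA2 (0.47), MIR3609 for RALB (0.53), VAMP7 for STK4 (0.36), MANSC1 for VAPA (0.36), CD276 for ZNF24 (0.35) and ZNF329 for SPIN1 (0.36) and GPX1 (0.26). ZNF329 was at 0.801 versus 4.4 FPKM for LM3 and 3.64 versus 1.43 for RBE, and CD276 at 17.8 versus 31.6 and 53.1 versus 26.3. MIR3609 was at low levels, 1.83 versus 0.3 FPKM for LM3 and 0.0466 versus 1.14 for RBE, where the pseudocount weighs on the difference. Genes that share exons were outside this pool. Among them, SNORD116-4 had log2 differences of 2.3 and -1.97 in LM3 and RBE, close to the 2.14 and -2.08 of MED29. AP000275.2 had 2.76 and 2.94, where TGOLN2 had 2.23 and 2.66. Likeness over 2 lines rests on 4 libraries and is given as a description.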

How the data were processed

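The authors deposited 1 FPKM table for 58174 genes and 4 libraries, and the same values in a file per library. FastQC, HISAT2 and the build hg38 are named in the submitters' processing notes. Neither the counting tool nor the strand setting is given in the sources used. The FPKM were not recoverable as reads: 11.9% to 17.9% of low values per library lay within 0.02 of a whole multiple of 1 read, so sequencing depth is unknown.

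Gene positions and exons came from GENCODE release 29, which held 57836 of the gene identifiers. Values were taken as log2(FPKM + 1), a pseudocount of 1, for 15930 genes with at least 1 FPKM in any library. The line difference was tested with limma 3.58.1 (R 4.3.3; terms for line and transfection, intensity trend, 1 residual degree of freedom, Benjamini-Hochberg threshold 0.05, two-sided). The script was tested on simulated data. Nothing says that cultures were repeated. In the main fit the p-values rest on the gap between the within-line differences, moderated over all genes, and not on a spread between repeat cultures. Named genes were the 10 genes, their paralogs, the list genes past 2-fold or with the highest or lowest mean difference, the listed genes of known role, the nearest genes and the nearest patterns; the nearest tested neighbours, the genes named for their role and GPX1P1 were chosen after values were seen. The members and lists were chosen with earlier results of these data known. Other pseudocounts, scalings, filters, models and left-out libraries were tried.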

Additional observations from a re-analysis of the deposited data

Results flagged for a closer look

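The 7 genes with opposite within-line differences are set out here because their 2 libraries moved one way in LM3 and the other way in RBE. The LM3 difference minus the RBE difference, on the log2(FPKM + 1) scale, was 4.23 for MED29, 2.89 for RALB, 2.7 for VAPA and 2.46 for STK4. It was -2.53 for GPX1, -2.44 for SPIN1 and -2.27 for ZNF24. These gaps were not tested, since each line has 1 library per transfection, and the genes were chosen by them. The gap of MED29 was the widest of the 7.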

How the results depend on the processing

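Of 80 differences of the 10 genes computed with other pseudocounts and scalings, 75 were classed as the same and 5 as moved. The 75 include sizeable shifts at a pseudocount of 5. ZNF24 in RBE went from 1.23 to 0.71 and NRSN2 in LM3 from -1.68 to -1.16. None of these settings could turn a direction. How many of the 10 kept a 2-fold difference in both lines depended on the pseudocount: 10 did at 0.1 and 5 at a pseudocount of 5, where NRSN2, SPATA2, SPIN1, STK4 and ZNF24 no longer did. With library totals made equal 8 remained, without NRSN2 and STK4, and with median-of-ratios scaling 9, without STK4. Over all genes, 49 differed 2-fold in both lines, 201 with a pseudocount of 0.1 and 18 with 5. By limma, 0 of the 10 genes passed between the lines, and 1 (TGOLN2) with a pseudocount of 5, but the error of this test comes from the differences that chose the genes, so neither count says how the lines differ in them. Leaving out 1 library in turn gave 0 of the 10 each time and between 5573 and 6980 of all genes, against 9348 with all 4; it was 5573 without the si-NC library and 5836 without the si-FENDRR library of RBE, and the lone library left in a line is then assumed to vary like the others. The fits with 1 library left out also had no transfection term. Their gap to 9348 therefore mixes the loss of a library with the loss of that term. Without the term and with all 4 libraries, 9643 of all genes passed, which is the like-for-like count. No repeat cultures could be paired, since each line has 1 library per transfection and the labels give no replicate numbers. The transfection term matches libraries across the lines by treatment alone, and without it 0 of the 10 passed with all 4 libraries. Depth is unknown, so no counting error can be given.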

Other observations

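A further 11 genes differed at least 2-fold in both lines and share no exon with a gene on their own strand. Of these, 6 share none on either strand: MAPK14, CFL2 and GSPT1, lower with si-FENDRR in both lines, and B2M, TGFBR2 and MIR3609, with opposite differences. Pairs of levels give si-FENDRR first and si-NC second. CFL2, a muscle-type cofilin that severs actin filaments, was at 9.34 versus 30.9 FPKM for LM3 and 5.54 versus 32.5 for RBE. TGFBR2, a receptor of TGF-beta, was at 41.7 versus 19 FPKM for LM3 and 24.8 versus 51 for RBE.

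The other 5 overlap a gene on the opposite strand. The strand setting is not given, so it is unknown whether reads from the shared bases were told apart by strand. SLC39A1, a zinc importer, was at 221 versus 62.9 FPKM for LM3 and 43.8 versus 104 for RBE. MRPL34, a mitochondrial ribosomal protein, was at 48.3 versus 18.1 for LM3 and 17.2 versus 41.8 for RBE. TERF2IP, a telomere protein, was at 5.95 versus 16.3 for LM3 and 28.3 versus 13.1 for RBE. PFDN1, a prefoldin subunit, was the lower of each pair after si-FENDRR, 7.32 versus 22.4 FPKM for LM3 and 28.7 versus 59.4 for RBE, and so was PROSER2, with 2.51 versus 6.21 and 13.7 versus 33.8.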
